A study of Homo sapiens with 12 samples.

Results

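Hyaluronan genes were examined in HaCaT cells, a spontaneously immortalised human keratinocyte line. They were the rows of the deposited count table whose symbol was HAS2, HAS3, CD44, HYAL1, HYAL2, HYAL3, CEMIP or CEMIP2. All 8 symbols were found among 22545 in the table, and all 8 were among the 14207 genes that passed the filter on low counts. RNA sequencing libraries from 12 samples fell into 4 groups of 3: cells given M5 and lefamulin (ML), cells given M5 and retapamulin (MR), cells given M5 alone (M5), and cells with no treatment (WT). The genotype label was WT in every group, so the labels name no genotype difference between them. M5 was shared by 3 of the groups. In keratinocyte culture, M5 usually denotes a cocktail of proinflammatory cytokines. No source used here states its content, the doses, the times or a solvent control. Both compounds are antibiotics of the pleuromutilin class, with the same tricyclic core and different side chains.

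Hyaluronan is a long, unsulphated polysaccharide that fills the space between keratinocytes of the epidermis. Hyaluronan synthases in the plasma membrane build it from UDP-glucuronic acid and UDP-N-acetylglucosamine and push the chain out of the cell as it grows. CD44 is its main receptor on keratinocytes. Chains are cut by hyaluronidases, of which HYAL2 sits on the cell surface and HYAL1 in lysosomes, and CEMIP (also called HYBID or KIAA1199) is required for hyaluronan breakdown in fibroblasts of the human dermis.

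Total counts per library lay between 35110519 and 37520999, over 17009 to 17955 detected genes. Levels within a gene are given as CPM (counts relative to library sizes scaled by the trimmed mean of M values, TMM), and levels between genes as the deposited FPKM, which divide by gene length. FPKM use total counts without the TMM factors, which ran from 0.915 in an MR library to 1.11 in a WT library. Summed FPKM therefore read lower in MR relative to WT than CPM would, whereas shares and ratios within a library do not depend on this. A gene is called when its edgeR quasi-likelihood p, adjusted by the Benjamini-Hochberg method over the genes tested, is under 0.05. The labels do not say that samples of a group came from separate cultures, so p-values measure the spread between these samples, which may be technical. Of 7 keratinocyte markers 6 were in the table, with summed levels of 1198 to 1215 CPM in ML, 1394 to 1417 CPM in MR, 1479 to 1521 CPM in M5 and 2150 to 2204 CPM in WT libraries. KRT5 averaged 437 to 1632 CPM over the groups, whereas KRT14, its usual partner in basal keratinocytes, averaged only 0.730 to 8.52 CPM. Both were highest in WT, but the markers did not move as a set. In ML, MR, M5 and WT libraries TP63 averaged 114, 86.5, 228 and 104 CPM, and ITGA6 469, 598, 511 and 238 CPM. KRT15 averaged 124, 237, 81.5 and 142 CPM, and KRT10 42.1, 47.4, 40.7 and 55.1 CPM. Summed fibroblast markers reached 17.0 CPM at most and melanocyte markers 2.44 CPM. The 3 endothelial markers in the table, of 4, summed to 118 to 123 CPM in ML, 99.8 to 115 CPM in MR, 117 to 122 CPM in M5 and 14.6 to 16.7 CPM in WT libraries. Nearly all of that was CDH5, and PECAM1 had at most 2 counts in a group. Summed leukocyte markers lay between 39.5 and 43.0 CPM in ML, 74.9 and 84.6 CPM in MR, 29.9 and 31.3 CPM in M5, and 12.2 and 14.0 CPM in WT libraries, nearly all of it CD68, while PTPRC had at most 2 counts in a group. The part of these markers in the results below was not tested.

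M5 against WT compares cells given M5 with untreated cells, with no solvent control stated. The synthase HAS3 and the hyaluronan-degrading gene CEMIP rose most, CD44 and CEMIP2 rose about as much as each other, and the HYAL genes moved little. Of the 8 genes 6 were called higher, 0 lower, and HYAL1 and HYAL3 were not called. Among all genes tested 55.2% were called, 28.3% higher and 26.9% lower, and in 59.2% the libraries of both groups did not overlap. Of the calls 51.3% were higher, or 31.5% with library totals as the scale. The median log2 fold change was 0.77 over the 8 genes and -0.02 over all genes tested.

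HAS3 encodes the synthase that is most abundant here in untreated cells. Its level was 966, 922 and 960 CPM in the M5 libraries, against 48.8, 47.3 and 43.4 CPM in the WT libraries. Every M5 library was thus far above every WT library, by 20.4-fold on the fitted scale (log2 fold change 4.35, SE 0.04, edgeR adjusted p = 2.5e-29). HAS2, the synthase known from mouse knockouts to be needed for heart development, was at 4.62, 4.10 and 4.08 CPM in M5 libraries, against 2.79, 3.27 and 3.50 CPM in WT libraries. The groups did not overlap, yet the rise was small at 1.34-fold (0.42, SE 0.11, adjusted p = 0.0015). The call of HAS2 ended on log2(FPKM + 1) without a filter (0.15, adjusted p = 0.0525).

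CD44 stood at 1266, 1294 and 1336 CPM in M5 libraries, against 548, 543 and 578 CPM in WT libraries, a rise of 2.34-fold (1.22, SE 0.03, edgeR adjusted p = 2.6e-21). The count of CD44 sums all its splice forms, which these tables do not separate. CEMIP was at 87.1, 83.9 and 88.2 CPM in M5 libraries, against only 2.20, 2.13 and 2.42 CPM in WT libraries. That is a 38.3-fold rise (5.26, SE 0.06, adjusted p = 3.7e-28), which read 3.26 as a log2 difference of FPKM + 1, a scale that understates the change of low genes. CEMIP2, also called TMEM2, encodes a membrane protein related to CEMIP. It was at 346, 333 and 362 CPM in M5 libraries, against 166, 150.4 and 165 CPM in WT libraries, a 2.16-fold rise (1.11, SE 0.04, adjusted p = 3.2e-18).

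The HYAL genes lie side by side on chromosome 3. HYAL2 was at 31.0, 29.8 and 30.7 CPM in M5 libraries, against 28.4, 28.0 and 25.9 CPM in WT libraries (0.15, SE 0.06, edgeR adjusted p = 0.0352). The groups did not overlap, but this call ended on library totals (0.04, adjusted p = 0.629), with a filter of at least 1 CPM in 3 samples (0.13, adjusted p = 0.058) and on all FPKM settings. It also ended without WT replicate 3 (adjusted p = 0.157), M5 replicate 1 (0.0869) or M5 replicate 3 (0.0697). HYAL1 averaged 5.43 ± 0.217 CPM in M5 and 4.91 ± 0.724 CPM in WT libraries (SD, n = 3 in this and every group below), with overlap and a 95% interval of the log2 difference from -0.09 to 0.37. HYAL3 averaged 2.62 ± 0.209 CPM in M5 and 2.25 ± 0.643 CPM in WT libraries, again with overlap (interval -0.13 to 0.57).

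**Figure D1:**
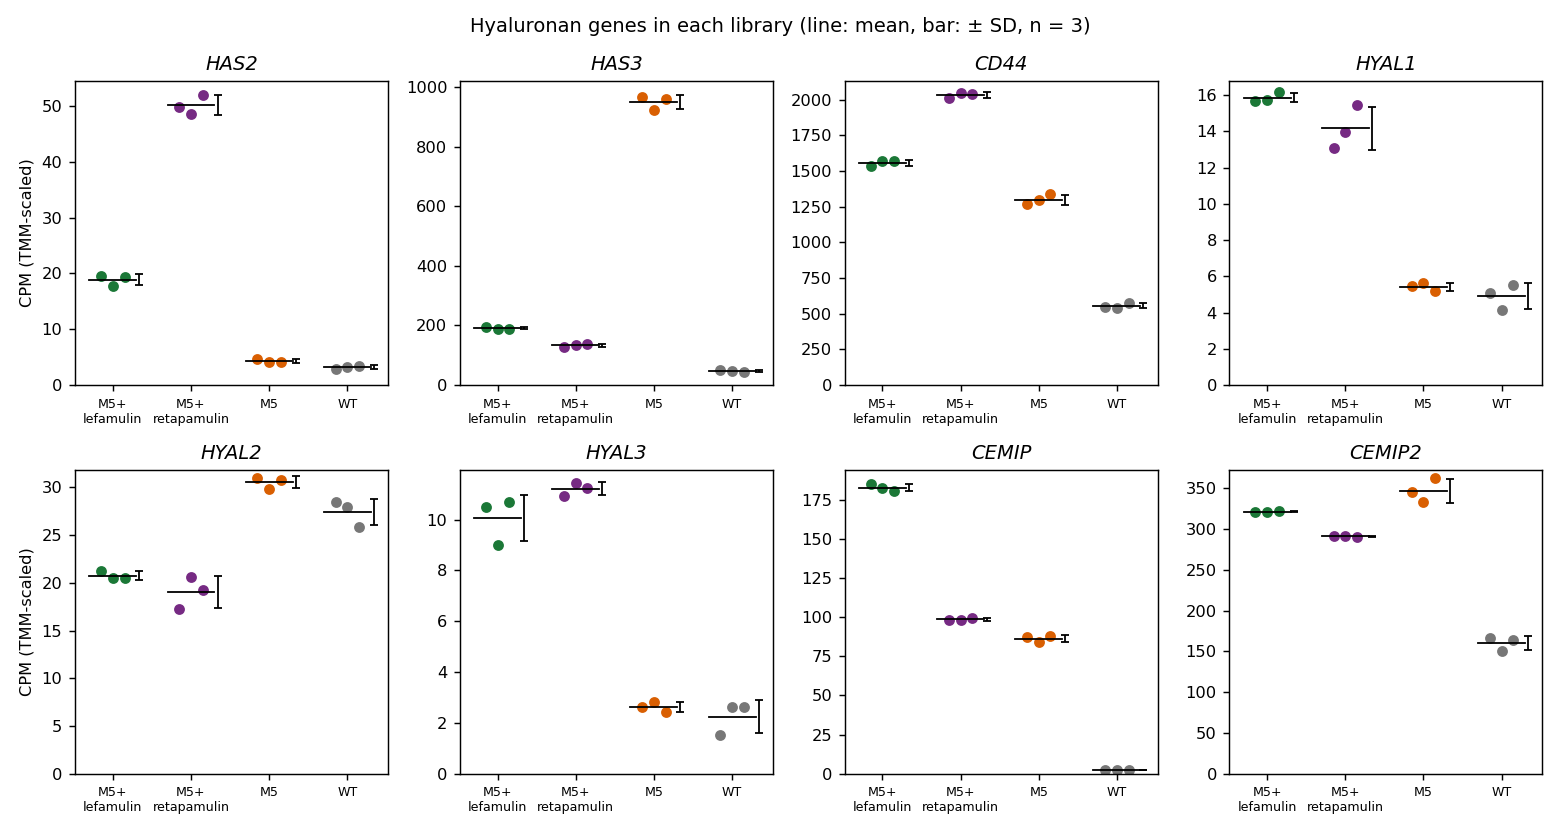
Level of each hyaluronan gene in CPM (TMM-scaled, vertical axis from 0) in the 3 libraries of each group; points are libraries, lines are group means and bars are ± SD. HAS3 is highest in M5 alone, HAS2 and CD44 in M5+retapamulin, and CEMIP in M5+lefamulin.

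The sequence before the start site is shown for both genes that rose most with M5, HAS3 and CEMIP, and for the start that HYAL3 shares with a neighbouring gene. Each run is the 250 bases before the start that RefSeq lists (build GRCh38.p14), read on the strand of the gene. Capitals mark matches to TATAAA or GGGCGG on either strand. The windows are chr16:69107290-69107539 (plus strand) for HAS3, chr15:80779120-80779369 (plus strand) for CEMIP and chr3:50299406-50299655 (minus strand) for HYAL3.
HAS3: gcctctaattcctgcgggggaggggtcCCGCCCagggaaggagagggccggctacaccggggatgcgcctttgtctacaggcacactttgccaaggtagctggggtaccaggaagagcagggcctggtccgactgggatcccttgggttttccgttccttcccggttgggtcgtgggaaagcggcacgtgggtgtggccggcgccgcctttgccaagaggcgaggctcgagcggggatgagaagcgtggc
CEMIP: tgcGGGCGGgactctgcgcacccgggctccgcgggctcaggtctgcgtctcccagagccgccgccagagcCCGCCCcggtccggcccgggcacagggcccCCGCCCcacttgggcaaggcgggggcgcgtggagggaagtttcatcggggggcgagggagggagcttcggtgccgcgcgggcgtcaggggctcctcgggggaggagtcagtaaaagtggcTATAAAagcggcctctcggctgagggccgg
HYAL3: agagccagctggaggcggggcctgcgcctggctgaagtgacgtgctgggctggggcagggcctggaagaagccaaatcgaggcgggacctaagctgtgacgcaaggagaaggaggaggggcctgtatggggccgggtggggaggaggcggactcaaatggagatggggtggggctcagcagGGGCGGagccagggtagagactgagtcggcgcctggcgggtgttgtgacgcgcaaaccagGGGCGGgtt

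The RefSeq promoter table held 7 of the 8 genes, HYAL3 with 2 starts, and 5 motifs were looked for in their 8 windows on both strands. No window held the AP-1 letters TGANTCA or the STAT letters TTCNNNGAA, which 6.59% and 6.56% of 34943 windows of the same length hold. The NF-kB motif, held by 9.95% of them, matched once, in the HYAL3 window that is not shown. CEMIP alone had the TATA box letters TATAAA, at position -30 from the start (10.8% of windows). GGGCGG, the GC box, was found in every window but that of HYAL2, against 42.5% of all windows. These matches are descriptions of letters in short windows and do not show binding.

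Lefamulin given with M5, against M5 alone, moved all 8 genes past the threshold. HAS3 fell, HAS2 rose, and so did CEMIP, HYAL1 and HYAL3. In all, 5 genes rose and 3 fell, where 67.9% of all genes tested were called, 33.6% higher and 34.3% lower, and 71.2% had libraries without overlap. The median log2 fold change was 0.67 over the 8 genes and -0.00075 over all genes tested. Retapamulin with M5, against M5 alone, moved the same 5 genes up and the same 3 down, with medians of 0.42 over the 8 genes and -0.05 over all genes tested. Here 72.1% of all genes were called, 34.1% higher and 38.0% lower, and 73.8% had libraries without overlap. Both comparisons use the same M5 libraries, so their likeness is not independent.

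The synthases went in opposite directions with each compound. HAS3 was at 196, 188 and 189 CPM in ML libraries and 129, 133 and 138 CPM in MR libraries, against the 922 to 966 CPM of M5 libraries. It was thus 4.97-fold lower with lefamulin (log2 fold change -2.31, SE 0.04, edgeR adjusted p = 1.3e-24) and 7.14-fold lower with retapamulin (-2.84, SE 0.04, adjusted p = 3.2e-26), with no overlap of libraries. HAS2 reached 19.5, 17.8 and 19.4 CPM in ML libraries and 49.9, 48.5 and 52.0 CPM in MR libraries, against 4.08 to 4.62 CPM in M5 libraries. Its rise was 4.43-fold with lefamulin (2.15, SE 0.08, adjusted p = 7.1e-17) and 11.7-fold with retapamulin (3.55, SE 0.08, adjusted p = 8.7e-22). Bulk RNA cannot tell a change in every cell from a change in the share of cells that express a gene.

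Relative to WT, HAS3 stayed higher with either compound. It was 4.11-fold higher in ML than in WT (2.04, SE 0.04, edgeR adjusted p = 3.6e-23) and 2.86-fold higher in MR than in WT (1.52, SE 0.04, adjusted p = 1.3e-20). HAS2, by contrast, was 5.93-fold above WT in ML and 15.7-fold above WT in MR (adjusted p = 2.0e-18 and 8.7e-23). Of the 8 genes 7 were higher and 1, HYAL2, was lower than in WT, in ML and in MR alike. Among all genes tested 74.0% were called in ML against WT, 36.9% higher and 37.1% lower, and 76.1% had libraries without overlap. In MR against WT 78.5% were called, 37.6% higher and 40.9% lower, and 79.2% had libraries without overlap. Of the calls against WT, 49.9% in ML and 47.8% in MR were higher, but 38.6% and 33.7% on library totals.

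The mix of synthase transcripts per length shows the opposite moves. The summed FPKM of HAS2 and HAS3 was 42.0 ± 1.10 in ML, 35.5 ± 0.942 in MR, 194 ± 3.63 in M5 and 11.1 ± 0.637 in WT libraries. HAS2 made up 10.4% ± 0.410 of that sum in ML, 30.6% ± 0.635 in MR, 0.523% ± 0.0317 in M5 and 7.46% ± 1.18 in WT libraries. The ratio of HAS3 to HAS2 FPKM was 8.64 ± 0.385 in ML, 2.27 ± 0.0679 in MR, 191 ± 11.5 in M5 and 12.6 ± 2.20 in WT libraries, so M5 alone stood far from the other groups. HAS1, the remaining synthase, had 1 count in a WT library and 0 in all other libraries.

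**Figure D2:**
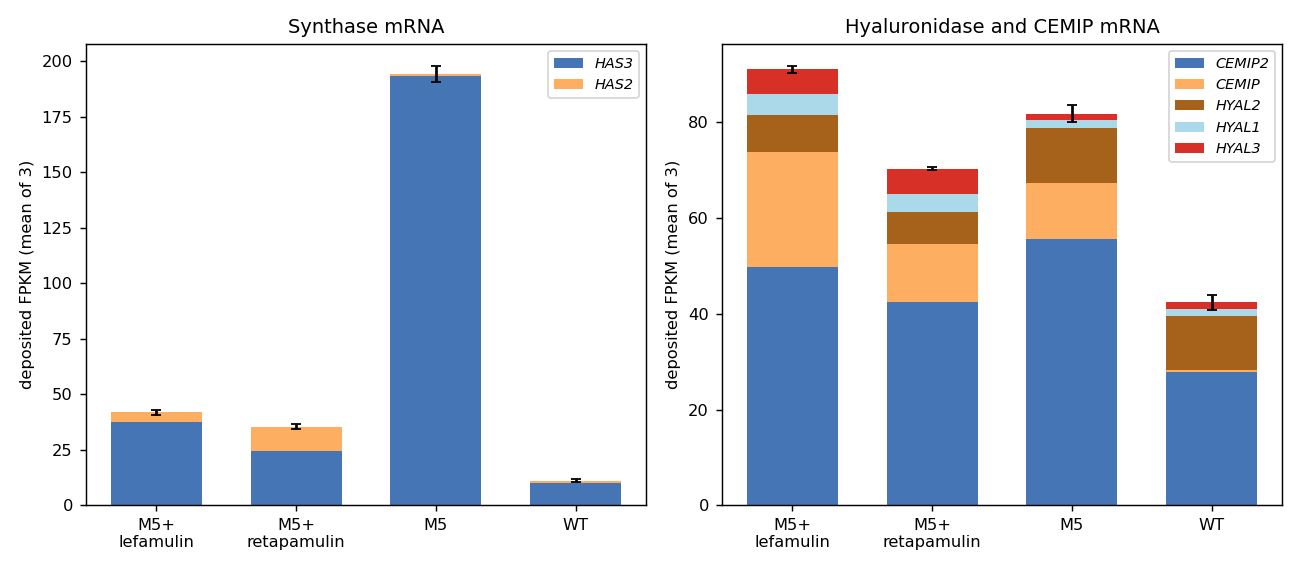
Stacked mean deposited FPKM (vertical axis from 0) of the synthases (left) and of the hyaluronidase and CEMIP genes (right) in each group; bars on top are ± SD of the summed FPKM over 3 libraries. The synthase sum is 194 in M5 and at most 42.0 in the other groups, and the HAS2 part is largest in M5+retapamulin.

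CD44 went further up from its M5 level with each compound. It had 1535, 1568 and 1567 CPM in ML libraries and 2009, 2048 and 2042 CPM in MR libraries, against 1266 to 1336 CPM in M5 libraries. The rise was 1.20-fold with lefamulin (0.26, SE 0.03, edgeR adjusted p = 1.6e-08) and 1.57-fold with retapamulin (0.65, SE 0.03, adjusted p = 4.6e-16). The groups kept apart in the order MR, ML, M5 and WT, with no overlap between neighbours. CD44 FPKM was 5.14 ± 0.183 times the synthase sum in ML, 7.46 ± 0.203 times in MR, 0.958 ± 0.0357 times in M5 and 7.81 ± 0.645 times in WT libraries.

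CEMIP, CEMIP2 and the HYAL genes split. CEMIP was at 185, 183 and 181 CPM in ML libraries, 2.12-fold above M5 (1.08, SE 0.04, edgeR adjusted p = 2.1e-18). In MR libraries it was at 97.9, 98.0 and 99.8 CPM, only 1.14-fold above M5 (0.19, SE 0.04, adjusted p = 5.9e-05), and this call ended on library totals (0.05, adjusted p = 0.164) and on every FPKM setting. CEMIP2 fell to 321, 321 and 323 CPM in ML libraries (-0.11, SE 0.04, adjusted p = 0.0104) and to 291, 292 and 291 CPM in MR libraries (-0.25, SE 0.04, adjusted p = 1.2e-06), against 333 to 362 CPM in M5 libraries. The lefamulin call of CEMIP2 ended without M5 replicate 3 (-0.08, adjusted p = 0.0759).

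HYAL1 and HYAL3 rose with both compounds, and HYAL2 fell. HYAL1 was at 15.7, 15.7 and 16.2 CPM in ML libraries and 13.1, 14.0 and 15.4 CPM in MR libraries, against 5.20 to 5.63 CPM in M5 libraries. That is 2.92-fold more with lefamulin (1.55, SE 0.10, edgeR adjusted p = 2.0e-12) and 2.61-fold more with retapamulin (1.38, SE 0.10, adjusted p = 1.4e-11). HYAL3, whose own hyaluronidase activity is uncertain, was at 10.5, 9.01 and 10.7 CPM in ML libraries and 10.9, 11.4 and 11.2 CPM in MR libraries, against 2.41 to 2.83 CPM in M5 libraries. Its rise was 3.83-fold (1.94, SE 0.15, adjusted p = 3.5e-11) and 4.27-fold (2.10, SE 0.15, adjusted p = 5.8e-12). HYAL2 was at 21.3, 20.5 and 20.5 CPM in ML libraries and 17.3, 20.6 and 19.3 CPM in MR libraries, all under the 29.8 to 31.0 CPM of M5 libraries. It was 1.47-fold lower with lefamulin (-0.56, SE 0.06, adjusted p = 2.7e-08) and 1.60-fold lower with retapamulin (-0.68, SE 0.06, adjusted p = 8.1e-10).

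Some counts of the HYAL genes are uncertain because neighbours overlap them. In the GENCODE v29 annotation, 12.2% of the exonic bases of HYAL3 are shared with NAA80, an actin acetyltransferase gene on the same strand, and RefSeq gives both the start printed above. NAA80 also rose, to 5.96 ± 0.469 CPM in ML and 5.23 ± 1.06 CPM in MR libraries, against 1.29 ± 0.0762 CPM in M5 libraries (2.21 and 2.02, edgeR adjusted p = 1.0e-10 and 4.5e-10). HYAL2 shares 11.2% of its exonic bases with TUSC2, which changed by -0.18 with lefamulin and -0.17 with retapamulin (adjusted p = 0.024 and 0.0255). HYAL3 also shares 2.12% of its exonic bases with IFRD2 on the same strand. IFRD2 was at 76.8 ± 2.11 CPM in ML and 74.7 ± 3.04 CPM in MR libraries, against 106 ± 4.07 CPM in M5 libraries, so it fell where HYAL3 rose (-0.46 and -0.50, edgeR adjusted p = 3.6e-10 and 6.7e-11). How reads in shared bases were assigned was not tested. HAS2, HAS3, CD44 and CEMIP share 4.80%, 6.90%, 0.840% and 2.94% of exonic bases with an opposite-strand gene, and no source used here states the strand setting of the counting. Of these opposite-strand genes only MESD, which overlaps CEMIP, has a symbol in the count table. Gene lengths implied by the deposited FPKM differ from this annotation, with 2655 against 4545 exonic bases for HYAL2 and 1918 against 2030 for HYAL3. The shares may thus not hold for the counts.

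Per length, HYAL1, HYAL2, HYAL3, CEMIP and CEMIP2 summed to 91.1 ± 0.700 FPKM in ML, 70.3 ± 0.253 in MR, 81.8 ± 1.83 in M5 and 42.4 ± 1.50 in WT libraries. CEMIP was 26.4% ± 0.312 of that sum in ML, 17.3% ± 0.221 in MR, 14.3% ± 0.137 in M5 and 0.781% ± 0.0448 in WT libraries. CEMIP2 held the largest part in every group, 54.7% to 67.9%, and whether its protein breaks down hyaluronan in these cells was not tested. Within the HYAL genes, HYAL2 made up 44.5% ± 1.29 of the FPKM in ML and 42.0% ± 1.56 in MR, against 79.8% ± 1.21 in M5 and 80.0% ± 3.03 in WT libraries.

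The order of the genes by mean FPKM also changed between groups. CD44 led at 216 FPKM in ML and 265 in MR libraries. HAS2 was last in ML at 4.36 FPKM, overlapping HYAL1 at 4.44, whereas in MR, at 10.9 FPKM, it stood above all 3 HYAL genes. In M5 libraries HAS3 led at 193 FPKM, just above CD44 at 186 without overlap, and CEMIP at 11.7 overlapped HYAL2 at 11.6. In WT libraries the order ran CD44 at 86.4, CEMIP2 at 27.9, HYAL2 at 11.3, HAS3 at 10.3, HYAL1 at 1.54, HYAL3 at 1.29, HAS2 at 0.824 and CEMIP at 0.331 FPKM. Libraries overlapped there between HYAL2 and HAS3, HYAL1 and HYAL3, and HYAL3 and HAS2.

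Lefamulin against retapamulin, both with M5, forms the only pair of compounds, and whether their doses or times matched is not known. HAS2 and CD44 were lower and HAS3, CEMIP and CEMIP2 higher with lefamulin, while the HYAL genes were not called. Among all genes tested 40.0% were called, 18.8% higher and 21.2% lower, and 52.0% had libraries without overlap. Of the calls 47.0% were higher, or 36.8% with RLE size factors and 72.8% on library totals. The size was largest for HAS2, 2.65-fold lower in ML than in MR (-1.41, SE 0.07, 95% interval -1.55 to -1.27, edgeR adjusted p = 9.2e-14). CEMIP was 1.86-fold higher (0.89, SE 0.04, interval 0.82 to 0.97, adjusted p = 2.3e-15) and HAS3 1.44-fold higher (0.52, SE 0.04, interval 0.44 to 0.60, adjusted p = 1.5e-10). CD44 was 1.31-fold lower (-0.39, interval -0.44 to -0.33, adjusted p = 2.1e-10) and CEMIP2 1.10-fold higher (0.14, interval 0.07 to 0.22, adjusted p = 0.00325). For HYAL1 the difference was 0.16 (interval -0.04 to 0.36, adjusted p = 0.187), for HYAL2 0.12 (-0.01 to 0.26, adjusted p = 0.142) and for HYAL3 -0.16 (-0.43 to 0.12, adjusted p = 0.373), which does not show that the compounds act alike on them. On library totals HYAL1 (0.25, adjusted p = 0.0363) and HYAL2 (0.21, adjusted p = 0.0106) were called higher in ML. HYAL2 was also called on all FPKM settings (0.19 to 0.21), and HYAL1 on filtered log2(FPKM + 1) with limma (0.20, adjusted p = 0.026). Without MR replicate 1, the lowest MR library for both, the difference was 0.11 for HYAL1 and 0.06 for HYAL2.

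**Figure D3:**
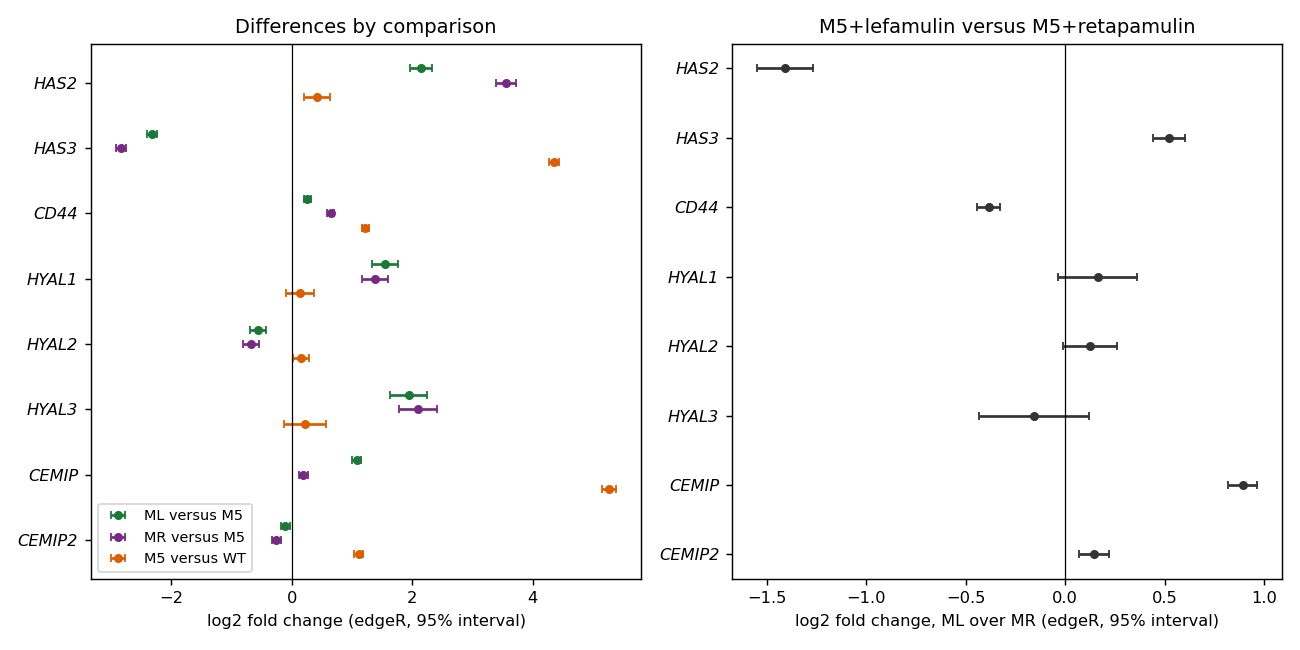
Log2 fold changes (horizontal axis) of each gene with 95% intervals from edgeR, for M5+lefamulin and M5+retapamulin against M5 and M5 against WT (left) and for M5+lefamulin over M5+retapamulin (right). HAS3 lies at 4.35 for M5 against WT and at -2.31 and -2.84 for the compounds, while HAS2 lies to the right of 0 in all 3.

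Enzymes of sugar precursor metabolism were examined as a list of 13, all tested, not all of which make the precursors. GFPT2 passed the filter only through the M5 libraries, so its calls are not independent of the filter. After M5, 9 rose and 2 fell against WT, where 55.2% of all genes tested were called, with a median log2 fold change of 0.26 against -0.02 over all genes. With lefamulin 10 rose and 3 fell against M5 (67.9% of all genes called), with a median of 0.34 against -0.00075. With retapamulin 10 rose and 2 fell (72.1% of all genes called), with a median of 0.70 against -0.05. Those that rose include AMDHD2, described below, by 0.33 with lefamulin and by 0.22 with retapamulin. HK2, a hexokinase, reached 103 ± 1.95 CPM in M5, against 50.7 ± 3.15 CPM in WT libraries (1.02, SE 0.04, edgeR adjusted p = 3.6e-16). UAP1, which makes UDP-N-acetylglucosamine, rose by 0.64 (SE 0.04) after M5, whereas its paralog UAP1L1 fell by 1.07 and AMDHD2, a deacetylase of N-acetylglucosamine phosphate, fell by 0.24.

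Enzymes of both precursor branches rose with the compounds. UGDH, which makes UDP-glucuronic acid, was at 162 ± 5.74 CPM in ML and 237 ± 5.77 CPM in MR, against 72.7 ± 3.36 CPM in M5 libraries (1.16 and 1.71, edgeR adjusted p = 2.3e-17 and 6.3e-21). GFPT1, the entry enzyme of the hexosamine branch, was at 185 ± 6.79 CPM in ML and 247 ± 4.66 CPM in MR, against 83.2 ± 0.404 CPM in M5 libraries (1.16 and 1.57, adjusted p = 5.1e-19 and 7.4e-22). UAP1L1 showed the largest rise, by 1.83 with lefamulin and 2.26 with retapamulin. GPI, the glucose phosphate isomerase, fell by 0.09 with lefamulin and by 0.17 with retapamulin, and GNPNAT1 fell by 0.18 with lefamulin. Lefamulin against retapamulin left 8 of the 13 lower and 2 higher, where 21.2% of all genes tested were called lower and 18.8% higher, with medians of -0.29 over the list and 0.01 over all genes. UGDH was 1.47-fold lower in ML than in MR (-0.55, interval -0.64 to -0.47, edgeR adjusted p = 2.4e-10).

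**Figure D4:**
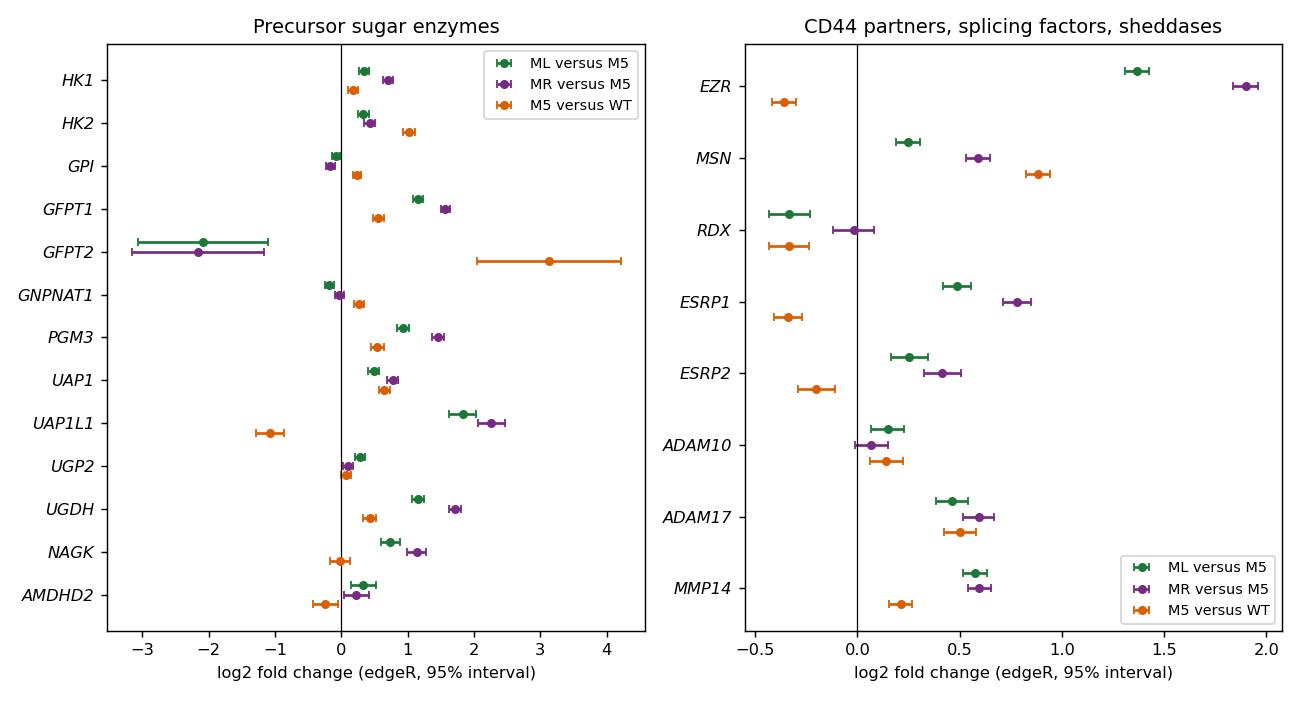
Log2 fold changes with 95% intervals from edgeR for enzymes of the sugar precursors (left) and for CD44 partners, splicing factors and sheddases (right), for each compound against M5 and M5 against WT. UGDH, GFPT1 and UAP1L1 lie at 1.16 or above for both compounds, and EZR at 1.37 and 1.90. GFPT2 is drawn although it passed the filter only through the M5 libraries, so its points are not independent of the filter.

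Genes around CD44 were listed as 11, of which 8 were tested. After M5, 4 rose and 4 fell against WT, where 55.2% of all genes tested were called (median -0.03, against -0.02 over all genes). With lefamulin 7 rose and 1 fell against M5, where 67.9% of all genes were called (median 0.36, against -0.00075). With retapamulin 6 rose and 0 fell, where 72.1% of all genes were called (median 0.59, against -0.05). EZR (ezrin), which ties CD44 to actin, was at 670.3 ± 4.39 CPM in ML and 968 ± 11.0 CPM in MR, against 260 ± 7.37 CPM in M5 libraries (1.37 and 1.90, edgeR adjusted p = 2.4e-22 and 3.0e-25). After M5 itself EZR fell by 0.36 against WT, while the related MSN (moesin) rose by 0.88. ESRP1, a splicing factor that favours the epithelial variant exons of CD44, fell by 0.34 after M5. It rose by 0.49 with lefamulin and by 0.78 with retapamulin. ADAM17, a sheddase, rose by 0.50 after M5, and further by 0.46 with lefamulin and 0.59 with retapamulin. MMP14, which can cleave CD44, rose by 0.57 with lefamulin and by 0.60 with retapamulin. RDX (radixin) fell by 0.33 after M5 and by a further 0.33 with lefamulin, and was not called with retapamulin (-0.02, edgeR adjusted p = 0.740).

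Other hyaluronan-binding genes were mostly at low counts: of 23 listed, 18 were in the table and 6 were tested. After M5 3 rose and 2 fell, where 55.2% of all genes tested were called (median 0.96, against -0.02 over all genes). With lefamulin 3 rose and 2 fell against M5, where 67.9% of all genes were called (median 0.34, against -0.00075). With retapamulin 2 rose and 3 fell, where 72.1% of all genes were called (median -0.38, against -0.05). TNFAIP6, with 0 counts in WT libraries, passed the filter only through the M5 libraries. Its place among those that rose after M5 and fell with each compound is thus not independent of the filter. ITIH4 averaged 0.535 CPM in ML, 0.714 CPM in MR, 0.198 CPM in M5 and 0.153 CPM in WT libraries. It passed only through the ML and MR libraries, so its place among those that rose with each compound is not independent either. The medians of this list include both genes. Without TNFAIP6 the median after M5 is 0.37, the value of ITIH4, which was not called there. HAPLN3, a link protein, was at 3.35 ± 0.0655 CPM in ML, 2.54 ± 0.475 CPM in MR, 8.90 ± 0.472 CPM in M5 and 1.38 ± 0.226 CPM in WT libraries. It rose by 2.68 after M5 and fell by 1.41 with lefamulin and by 1.81 with retapamulin (edgeR adjusted p = 7.1e-13, 1.1e-08 and 1.7e-10). HMMR, a hyaluronan receptor and spindle protein of dividing cells, fell by 0.15 after M5 and by 0.72 with retapamulin. HABP4 fell by 0.38 after M5 and rose by 0.67 with lefamulin and 1.00 with retapamulin. TLR4, at 0.519 to 2.36 CPM, rose by 1.56 after M5 and by 0.62 with lefamulin.

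Among genes listed for lysosomal breakdown of hyaluronan fragments, GM2A, GUSB and HEXA were not called after M5 against WT (log2 fold changes of -0.13, -0.06 and -0.09, edgeR adjusted p = 0.0583, 0.252 and 0.0657). GUSB, the lysosomal beta-glucuronidase, fell by 0.19 with lefamulin and by 0.34 with retapamulin against M5 (adjusted p = 0.000819 and 4.6e-07). GM2A, listed here although it encodes an activator protein of lysosomal glycolipid breakdown, fell by 0.21 and by 0.67 (adjusted p = 0.00262 and 4.8e-10). HEXA rose by 0.11 with lefamulin and 0.13 with retapamulin (adjusted p = 0.0209 and 0.00719).

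Genes with the most similar pattern were sought by the root mean square difference between log2 CPM, each centred on its own mean, over the 12 libraries. Nearest to HAS3 were IL1B (0.27) and IL1A (0.29). IL1B averaged 155 CPM in ML, 78.7 CPM in MR, 464 CPM in M5 and 27.6 CPM in WT libraries. Nearest to HAS2 were KLF6 (0.22) and PLAU (0.26), and KLF6 averaged 207 CPM in ML, 490.4 CPM in MR, 33.2 CPM in M5 and 28.6 CPM in WT libraries. CEMIP was nearest to GATM (0.42) and LCN2 (0.45), and CD44 to SLCO4A1 (0.07) and JUNB (0.08). These differences are not scaled to a gene's own range over the libraries, which was 6.41 for CEMIP, 4.47 for HAS3 and 0.84 for HYAL2. CEMIP2 was nearest to TFRC (0.06) and TMEM165 (0.08), HYAL1 to PPP1R3B (0.10) and CHD2 (0.12), HYAL2 to XYLT2 and SNRPD1 (0.06 each), and HYAL3 to TMBIM1 (0.17) and FOXB1 (0.18). Many genes can be about as near: 1933 lay within 0.2 of HYAL2, 105 of CEMIP2, and 69 each of CD44 and HYAL1. Within 0.2 of HYAL3 lay 3 genes, and 0 of HAS2, HAS3 and CEMIP. Between HAS2 and HAS3 the difference was 2.32, the second widest of all pairs among the 8 genes after HYAL2 and CEMIP (2.63).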

How the data were processed

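Per the submitters' processing notes, HISAT2 and HTSeq were used, with their versions, the genome build, the annotation and the strand setting not given in the sources used here. Deposited by the authors were whole-number counts per gene symbol, 1 column per sample, and a second table of FPKM for the same genes. For all 20422 genes with a count in at least 2 libraries, the deposited FPKM equalled the count over a fixed gene length and the column total, within a coefficient of variation of 0.001. The extraction text of the labels speaks of mouse epidermis, which differs from the HaCaT source, and was not used.

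Counts were tested in R 4.3.3 with edgeR 4.0.16 (filterByExpr by group, TMM, quasi-likelihood fit of 4 group means over all 12 libraries, 6 comparisons). SE and 95% intervals came from that fit. The code was tested on simulated data. Library totals of 35110519 to 37520999 counts gave SE of 0.03 to 0.17 for the log2 fold changes of the 8 genes. Replicates of a group differed by more than sampling noise (chi-square per degree of freedom 2.78 to 8.84), so no library was merged. Alternatives were library totals or RLE size factors as the scale, DESeq2 1.42.0, limma 3.58.1 on log2(FPKM + 1 or 0.1), no filter or a stricter one, a replicate block, only the groups compared, and each library left out in turn.

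The members and gene lists were chosen with earlier results of these data known. Named genes are the 8 members, up to 2 called genes each way with the largest change per list (mean of at least 1 CPM in either group) for M5 against WT and each compound against M5, with their values in other comparisons where set beside these, and the 2 nearest patterns per member. ITIH4 lies outside this rule and is named only for how it passed the filter and for its part in a median. Motifs were searched in the 250 bases before each start. A result that the rule for named genes would give is not reported here.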

Additional observations from a re-analysis of the deposited data

How the results depend on the processing

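Of 1056 recalculated log2 fold changes of the 8 genes (22 settings, 6 comparisons), 1035 kept their direction and their side of the threshold, 14 lost a call, 6 gained one and 1 changed sign: HYAL3 in M5 against WT, not called, was -0.00098 without WT replicate 1 (-0.00098 to 0.35 over the libraries left out). Those that lost or gained a call were HAS2 and HYAL2 in M5 against WT, CEMIP in MR and CEMIP2 in ML against M5, and HYAL1 and HYAL2 in ML against MR. The number of the 8 genes called ranged over all settings from 4 to 6 for M5 against WT, 7 to 8 for each compound against M5, 5 to 7 for ML against MR, and stayed at 8 against WT for each compound. In the main fit, 55.2% of all genes tested were called for M5 against WT and 40.0% for ML against MR. The shares were 67.9% and 72.1% for ML and MR against M5, and 74.0% and 78.5% for ML and MR against WT. Library totals as the scale moved the median of all genes from -0.02 to -0.14 for M5 against WT and from -0.05 to -0.19 for MR against M5. On log2(FPKM + 1) the rises of low genes shrank, for example HAS2 in ML against M5 to 1.41.

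Replicate numbers did not pair the samples: correlations of same-numbered deviations ran from -0.144 to 0.184, and 5 of 12 libraries correlated best with a library of their own number. With the replicate block 6, 8, 8 and 5 of the 8 genes were called in M5 against WT, ML and MR against M5, and ML against MR. Of all 14207 genes tested, 7780, 9578, 10212 and 5611 were called with the block, in the same order. Without the block 7839 were called in M5 against WT. Depth limits HYAL3, HAS2 and CEMIP in WT, with 59 to 140 counts per library.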

Other observations

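TNFAIP6, which encodes the hyaluronan-binding protein TSG-6, was chosen here after its values were seen, since its level lies under the 1 CPM asked of named genes. It had 4 counts over the ML libraries, 2 over the MR libraries, 103 over the M5 libraries and 0 over the WT libraries. GFPT2, a paralog of GFPT1 that was also chosen after its values were seen, averaged 0.178 CPM in ML, 0.168 CPM in MR, 0.768 CPM in M5 and 0.0847 CPM in WT libraries. Both genes passed the filter on low counts only through the M5 libraries, where they are high, so no test is given for them.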
